A study of Arabidopsis thaliana with 210 samples.

Results

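The ARGONAUTE genes AGO1 (AT1G48410), AGO5 (AT2G27880) and AGO10 (AT5G43810) of Arabidopsis thaliana were followed through every well of the series. They were taken by their gene identifiers, and all 3 were present among the 29417 nuclear genes of the deposited table. RNA had been measured in nuclei from shoot apices of Col-0 seedlings, harvested at 7 days after germination and labelled as stem cells. The wells comprised 93 p1 and 93 p2 single nuclei processed with Smart-seq2, 8 p1 and 12 p2 single nuclei processed with Smart-seq3, 1 bulk well of p1, 1 bulk well of p2 and 2 p2 wells without a nucleus. Both protocols amplify whole transcripts from single cells. The labels do not say what p1 and p2 are, and they give 50 nuclei for a bulk well whereas the column names of the bulk wells hold the number 10. All wells share the wild-type background, and no treatment is named. Because the labels tie no nucleus to a plant or to a sort, each group stood for 1 sample, groups were not tested against each other, and every comparison describes these libraries.

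ARGONAUTE proteins hold a small RNA and use it to find complementary transcripts. AGO1 is the main effector of plant microRNAs and is itself held in check by miR168, which targets the AGO1 transcript. AGO10, its closest relative, preferentially binds miR165 and miR166 and keeps them from repressing the class III homeodomain leucine zipper (HD-ZIP III) transcription factors, and it is known for maintaining the stem cells of the shoot meristem. AGO5 prefers small RNAs that begin with cytosine and is best known from reproductive tissues.

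The sequences that set the 3 genes apart are those of the microRNAs that act on AGO1 or are bound by AGO10, together with their target sites. Coordinates and sequences are those of RefSeq on TAIR10.1, whereas the submitters' processing notes name TAIR10. In the mature microRNAs, written from the 5′ end, capitals mark the seed (bases 2 to 8). MIR168A and MIR168B encode the same mature 5p sequence, and miR165 and miR166 share 1 seed.
miR168a-5p: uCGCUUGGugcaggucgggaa
miR165a-3p: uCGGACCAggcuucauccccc
miR166a-3p: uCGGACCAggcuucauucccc

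The best window for miR168 in each of the 3 transcripts is shown next, because it separates AGO1 from the others. Capitals mark bases that do not form a Watson-Crick pair with the microRNA, G:U pairs included.
AGO1: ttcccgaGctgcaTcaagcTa
AGO5: ttcTcgaTAtCcacAaaAGgG
AGO10: ttATcgTGAtgGaGTaagcga
The AGO1 window lay in coding sequence of exon 2, at chr1:17891529-17891549 on the minus strand, and had 3 mismatches, 1 of them a G:U pair. Among 31460 genes with a coding transcript, AGO1 was the only one with a window of 3 mismatches or fewer, and the median gene had a best window of 9. The best windows of AGO5 (exon 12, chr2:11874954-11874974, plus strand) and AGO10 (across exons 15 and 16, chr5:17615525-17615627, plus strand) had 8 mismatches each. A window with few mismatches is a match of letters and shows no cleavage.

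The windows for miR165 in the HD-ZIP III genes PHB, PHV, REV, ATHB8 and CNA show the transcripts that AGO10 is known to shield.
PHB and PHV: TTgggatgaagcctggtccgG
REV and ATHB8: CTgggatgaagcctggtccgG
CNA: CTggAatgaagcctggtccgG
The first 4 genes had 3 mismatches to miR165 and were the 4 genes of the annotation at or below that number, and CNA had 4 to miR165 and 3 to miR166. Every one of these windows lay in coding sequence and was split by an intron, between exons 5 and 6 in ATHB8 and between exons 4 and 5 in the other genes. The whole site is therefore present in spliced RNA and interrupted in unspliced RNA, and the counts of nuclear RNA analysed here do not separate the 2 forms.

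The gene models also bear on how counts can be assigned. AGO1 lies on chromosome 1 (17885633 to 17892632, minus strand) with 22 exons and 1050 amino acids, AGO5 on chromosome 2 (11871378 to 11876989, plus strand) with 20 exons and 997 amino acids, and AGO10 on chromosome 5 (17610744 to 17616907, plus strand) with 20 exons and 988 amino acids. In a global alignment of coding sequences, AGO1 and AGO10 were 68.4% identical over 2947 aligned bases, AGO1 and AGO5 63.9%, and AGO5 and AGO10 63.4%, against 57.2% to 60.95% for each of them with AGO4 of another clade. No stretch of 31 bases was shared between any pair of the 3 genes or with another coding gene, and no annotated gene overlapped them.

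Totals on genes were 1945890 counts in the p1 bulk well and 1253317 in the p2 bulk well, and Smart-seq2 nuclei ranged from 1362 to 8102382 counts in p1 and from 153 to 1236901 in p2. At least 50000 counts were reached by 57 p1 and 81 p2 Smart-seq2 nuclei, and comparisons between nuclei used these. The stem cell label was set against markers: in these nuclei, CLV3, the peptide gene of shoot stem cells, had 5 or more counts in 15 of 57 (p1) and 5 of 81 (p2), whereas RBCS1A, a Rubisco small subunit gene of photosynthetic tissue, had them in all, so that most nuclei lacked the defining stem cell transcript at this depth. Of 5 root, pollen or seed genes that a shoot apex should not express, 4 had no Smart-seq2 nucleus at 5 counts and the seed gene OLEO1 had 3 p1 nuclei and 1 p2 nucleus of 93 each.

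AGO1 was the most abundant of the 3 transcripts in both bulk wells. The p1 bulk well held 373 counts of AGO1, 118 of AGO10 and 41 of AGO5, and the p2 bulk well held 233, 60 and 35. Divided by exon length, the p1 levels were 52.7 CPM (counts scaled to 1000000 counts on genes) per kb of exon for AGO1 (95% interval 47.5 to 58.3), 14.3 for AGO10 (11.9 to 17.2) and 6.23 for AGO5 (4.47 to 8.45). The p2 levels on this scale were 51.1 for AGO1 (44.7 to 58.1), 11.3 for AGO10 (8.63 to 14.6) and 8.26 for AGO5 (5.75 to 11.5). The order was thus AGO1, AGO10, AGO5 in both wells, but the p2 intervals of AGO10 and AGO5 overlapped. Intervals on counts are exact Poisson intervals. They cover counting error only and take reads as independent, although reads without molecular identifiers are not independent molecules. Those on shares are exact Clopper-Pearson intervals. They take the nuclei of a group as independent draws and cover no spread between plants or sorts.

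Between the bulk wells, no difference in level exceeded counting error, which does not show that the levels were equal. The log2 ratio of p2 over p1 in CPM was -0.04 for AGO1 (-0.29 to 0.20), 0.41 for AGO5 (-0.29 to 1.09) and -0.34 for AGO10 (-0.81 to 0.12), so that every interval included 0. In bulk wells, fewer nuclei with a transcript and less of it per nucleus cannot be told apart.

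The counts of each gene differed widely between single nuclei. Taking a carrier as a Smart-seq2 nucleus with 5 or more counts, AGO1 had 28 carriers in p1 and 22 in p2, AGO10 had 15 and 29, and AGO5 had 7 and 3, each of 93. As shares, this was 30.1% (21.03 to 40.5) and 23.7% (15.5 to 33.6) for AGO1, 16.1% (9.32 to 25.2) and 31.2% (21.98 to 41.6) for AGO10, and 7.53% (3.08 to 14.9) and 3.23% (0.670 to 9.14) for AGO5. These shares depend on the minimum and on depth. From 1 count, AGO1 was in 65.6%, AGO10 in 34.4% and AGO5 in 20.4% of p1 nuclei, and among p1 nuclei of at least 50000 counts AGO1 was at 5 or more counts in 49.1%. AGO1 had no count in 32 of the 93 p1 nuclei and in 67 of the 93 p2 nuclei. The wells without a nucleus had no count of AGO1 or AGO10 and 1 count of AGO5. Their 16629 counts together allow up to 180 CPM at 3 counts for AGO1 and AGO10, and the AGO5 interval reached 335 CPM. These wells thus bound the background only loosely.

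**Figure D1:**
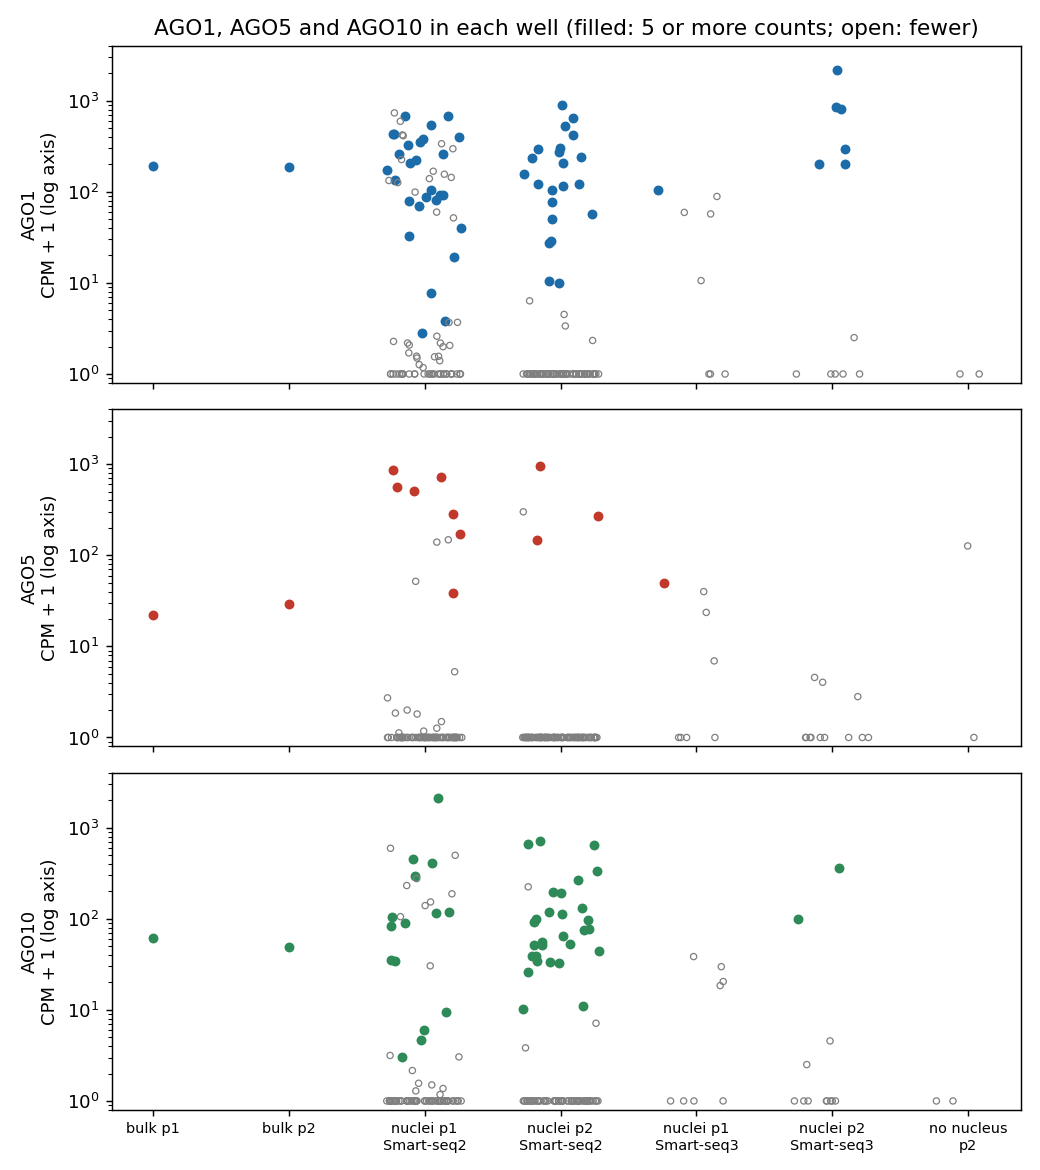
Level of AGO1, AGO5 and AGO10 in every well, as CPM + 1 on a log axis, by group; filled points are wells with 5 or more counts of the gene and open points wells with fewer. Carriers lie on both sides of the bulk wells for AGO1 (15 of 28 below in p1, 12 of 22 in p2) and AGO10 (6 of 15 and 9 of 29), whereas all 10 AGO5 carriers lie above them.

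The levels in carriers overlapped between the 3 genes. Among carriers, AGO1 spanned 1.82 to 678 CPM in p1 (median 152) and 9.02 to 895 CPM in p2 (median 139). AGO5 spanned 37.2 to 853 CPM in p1 (median 502) and 148 to 946 CPM in p2 (median 269). AGO10 spanned 2.02 to 2117 CPM in p1 (median 88.6) and 9.14 to 706 CPM in p2 (median 74.8). Per kb of exon, the carrier medians in p1 and p2 were 41.8 and 38.1 CPM for AGO1, 148 and 79.7 for AGO5, and 20.9 and 17.7 for AGO10. On this scale AGO5, the lowest of the 3 in the bulk wells, had the highest median among its few carriers. These medians describe nuclei chosen by their counts of the same gene.

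The AGO1 counts of p1 were spread over a series of nuclei. The most were in p1 nucleus 36 with 3530 counts (436 CPM), followed by nucleus 41 with 1818 (674 CPM), nucleus 62 with 1501 (678 CPM), nucleus 67 with 1099 (539 CPM) and nucleus 54 with 879 (434 CPM). In p2 the most were in nucleus 39 with 705 counts (646 CPM), nucleus 58 with 397 (417 CPM), nucleus 26 with 366 (895 CPM) and nucleus 5 with 324 (531 CPM). It took 14 p1 nuclei and 13 p2 nuclei to hold 90% of the AGO1 counts, and the top 3 held 47.02% and 47.1%. Other genes with a like number of carriers (within 2 nuclei) had a median of 44.4% in p1 and 39.1% in p2 in their top 3.

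AGO10 was concentrated in p1 and spread in p2. In p1, nucleus 50 held 2220 counts (450 CPM), nucleus 13 held 1810 (408 CPM), nucleus 49 held 1272 (2117 CPM) and nucleus 36 held 950 (117 CPM). In p2, nucleus 87 held 366 counts (706 CPM), nucleus 39 held 290 (266 CPM), nucleus 34 held 222 (642 CPM), nucleus 83 held 202 (332 CPM) and nucleus 53 held 184 (668 CPM). The top 3 nuclei held 71.8% of the AGO10 counts in p1 and 41.4% in p2, and 90% of them lay in 6 p1 and 17 p2 nuclei. Genes with a like number of carriers had medians of 62.04% and 33.03%, so that AGO10 lay above the median gene in both.

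In each group, 3 nuclei held over 90% of the AGO5 counts. In p1, nucleus 13 held 2227 counts (502 CPM), nucleus 62 held 1615 (730 CPM), nucleus 21 held 1473 (853 CPM) and nucleus 88 held 140 (286 CPM). The other p1 carriers, nuclei 6, 84 and 14, held 9, 7 and 6 counts. The p2 carriers were nucleus 17 with 374 counts (946 CPM), nucleus 3 with 96 (148 CPM) and nucleus 74 with 86 (269 CPM). The top 3 held 96.8% of the counts in p1 and 99.8% in p2, against medians of 86.2% and 100% for genes with a like number of carriers.

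**Figure D2:**
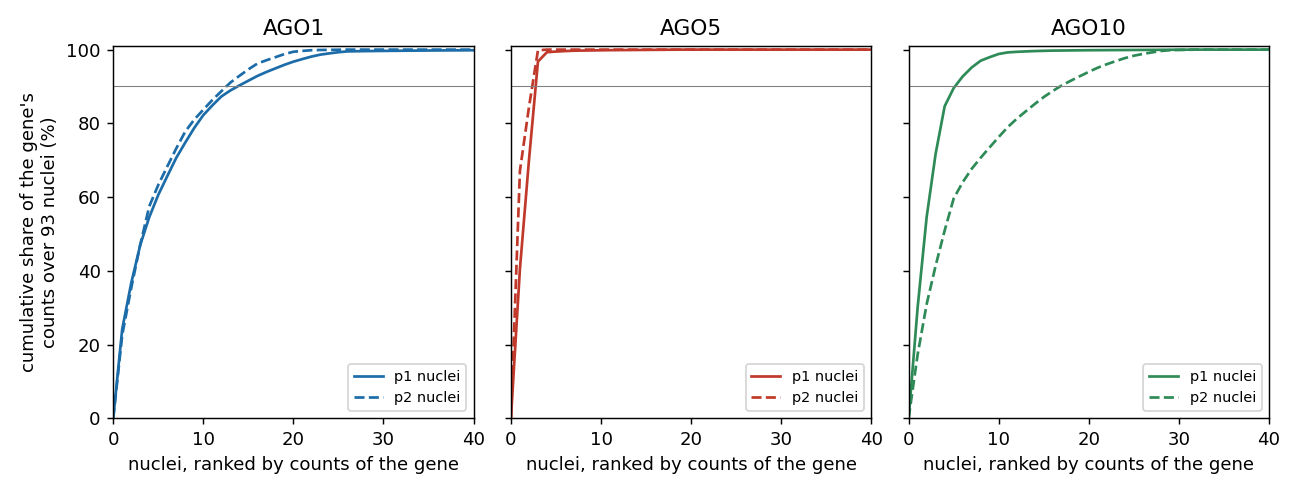
Cumulative share of each gene's counts over the 93 Smart-seq2 nuclei of p1 (solid) and p2 (dashed), with nuclei ranked by their counts of that gene; the grey line is at 90%. The AGO5 curves reach 90% at 3 nuclei, the AGO1 curves at 14 and 13, and the AGO10 curves at 6 in p1 and 17 in p2.

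Low counts of the genes were common in p1. Wells with 1 to 4 counts numbered 33 for AGO1, 12 for AGO5 and 17 for AGO10 in p1, against 4, 1 and 3 in p2. In p1, AGO5 had a count in 13 of 50 wells whose replicate number shared its block of 8, or its remainder on division by 8, with a well of 100 or more AGO5 counts, and in 2 of 39 wells with no such link. For AGO10 in p1 these figures were 23 of 72 and 1 of 13, and for AGO1 in p1 they were 40 of 71 with a single well not linked. In p2 they were 15 of 74 and 2 of 10 for AGO1, 19 of 54 and 8 of 34 for AGO10, and 1 of 18 and 2 of 74 for AGO5, so that the shares of AGO1 were alike there. The p1 wells with 6 to 9 AGO5 counts were all linked in this way. The labels give no plate positions, and the part of this pattern in the low counts was not tested. From 20 counts, a minimum added after the values had been seen, AGO5 had 4 carriers in p1 and 3 in p2, AGO1 had 26 and 20, and AGO10 had 11 and 22.

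Smart-seq3 nuclei of p2 also split into AGO1 carriers and others. AGO1 had 631 counts in nucleus 7, 244 in nucleus 1, 164 in nucleus 10, 152 in nucleus 12, 143 in nucleus 5 and 76 in nucleus 11, and 1 count or none in the other 6 nuclei. In CPM, its carriers ranged from 203 to 2150.0 with a median of 557, the highest AGO1 value of any nucleus included. AGO10 had 199 counts in nucleus 10 and 69 in nucleus 5, both of them AGO1 carriers, and at most 1 count elsewhere. AGO5 had at most 2 counts in any p2 Smart-seq3 nucleus. The 8 p1 Smart-seq3 nuclei, with a median total of 55305 counts, held at most 6 counts of AGO1, 3 of AGO10 and 10 of AGO5.

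The genes were next examined for sharing nuclei. Of the 57 p1 nuclei with at least 50000 counts, 24 carried none of the 3 genes, 20 carried 1, 12 carried 2 and 1 carried all 3. Of the 81 such p2 nuclei, 42 carried none, 25 carried 1, 13 carried 2 and 1 carried all 3. The nuclei with all 3 were p1 nucleus 62, with 1501 counts of AGO1, 1615 of AGO5 and 180 of AGO10, and p2 nucleus 3, with 153, 96 and 25. With these nuclei included, 24 nuclei carried both AGO1 and AGO10, where the product of their shares within p1 and p2 gives 14.8. The pairs with AGO5 were close to that product, at 4 nuclei with AGO1 against 3.27 and at 3 nuclei with AGO10 against 2.30. From 1 count, AGO1 and AGO10 shared 33 nuclei, where the product gives 27.3. The product takes all nuclei of a group to detect genes equally well, which these nuclei did not. Pairs outside the 3 genes were not counted, and the part of detection in the shared nuclei was not tested.

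AGO10 was present more often where AGO1 was high. AGO1-high nuclei, defined by 5 or more counts and at least 50 CPM of AGO1, carried AGO10 in 8 of 22 (36.4%, 17.2 to 59.3) in p1, against 6 of 35 other nuclei (17.1%, 6.56 to 33.6). In p2 they carried it in 12 of 17 (70.6%, 44.04 to 89.7), against 17 of 64 (26.6%, 16.3 to 39.1). The difference was 19.2 percentage points in p1 and 44.03 in p2, where the median of 7723 genes was 11.2 and 6.71 points. The p1 difference fell short of the 20 points used as the call rule here. The intervals overlapped in p1 and not in p2, but they take nuclei of a single sample as independent draws and are no test. AGO1-high nuclei had more genes with 5 or more counts than other nuclei, at medians of 4654 against 2953 in p1 and 2458 against 2157.5 in p2, and the part of this in the AGO10 share was not tested.

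The same overlap can be set by AGO10, which adds no separate evidence. AGO10-high nuclei, by the same definition, carried AGO1 in 5 of 8 in p1 (62.5%, 24.5 to 91.5) against 23 of 49 (46.9%, 32.5 to 61.7), and in 10 of 20 in p2 (50%, 27.2 to 72.8) against 12 of 61 (19.7%, 10.6 to 31.8). Levels in CPM followed only loosely: Pearson's r of log2(CPM + 1) between AGO1 and AGO10 was 0.16 over 57 p1 nuclei and 0.37 over 81 p2 nuclei. The 95th percentile over all genes was 0.358 in p1 and 0.275 in p2 for r with AGO1, and 0.255 and 0.223 with AGO10. The pair thus lay below both percentiles in p1 and above both in p2. This is a description in sparse counts of nuclei that differ in depth. Several nuclei had much of 1 gene and little of the other. In p1 nucleus 50, AGO10 stood at 2220 counts and AGO1 at 33, and in p1 nucleus 41, AGO1 stood at 1818 counts and AGO10 was below 5.

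**Figure D3:**
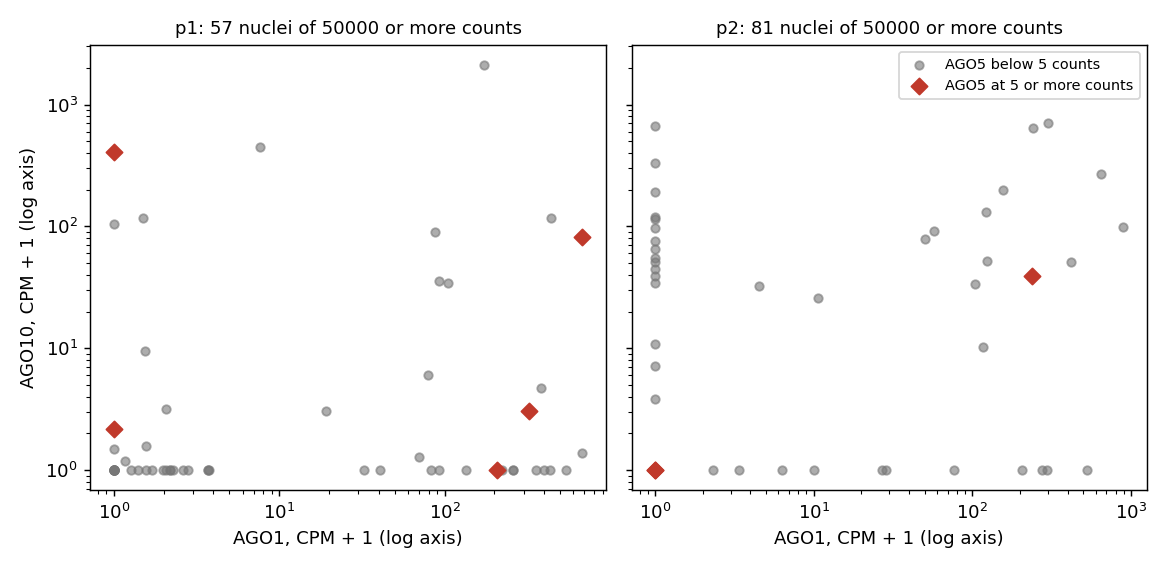
AGO1 against AGO10 in each Smart-seq2 nucleus of 50000 or more counts, both as CPM + 1 on log axes, for p1 (57 nuclei) and p2 (81 nuclei); red diamonds are nuclei with 5 or more AGO5 counts. In p2, 14 nuclei carried both genes, and in p1, 10 did; nuclei along the axes carried only 1 of them or none.

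The AGO5 nuclei are few enough to be described singly. PDF1, a marker of the outermost cell layer, had 5 or more counts in all 10 carriers. It was 1 of 57 such genes among the 7723 tested, the photosynthesis genes RBCS1A and LHCB1.1, which most nuclei held, included. The PDF1 level ran from 6.37 CPM in p1 nucleus 21 to 5710 CPM in p2 nucleus 17. FDH, which elongates fatty acids in the epidermis, was in 7 of the 10 carriers, and of the related regulators of epidermal identity, ATML1 was in 4 and PDF2 in 3.

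Epidermal genes were also frequent in nuclei of the same depth. Of all p1 nuclei with at least 50000 counts, PDF1 was in 94.7%, FDH in 73.7%, ATML1 in 49.1% and PDF2 in 45.6%, and of such p2 nuclei in 53.1%, 41.98%, 37.04% and 34.6%. With these shares, the 8 AGO5 carriers of that depth would hold PDF1 in 6.33, FDH in 4.94, ATML1 in 3.57 and PDF2 in 3.32 nuclei, beside 8, 6, 4 and 3 counted. The epidermal genes were thus within 2 nuclei of what their overall shares give.

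The stem cell genes were present in some of these nuclei. CLV3 and the mCherry reporter were both at 5 or more counts in p1 nuclei 21 and 88 and in p2 nucleus 17, and mCherry also in p1 nucleus 84. The p2 nucleus 17, with the highest AGO5 level at 946 CPM, had 563 counts of CLV3 (1424 CPM), 443 of mCherry (1121 CPM), 2257 of PDF1, 472 of ATML1 (1194 CPM) and 570 of PDF2 (1442 CPM). It also held STM, the homeobox gene of the meristem, at 131 counts, and the dividing-cell genes CYCB1;1, CYCB1;2, CDKB2;1 and KNOLLE at 43 to 234 counts. By contrast, p1 nuclei 13 and 62 and p2 nuclei 3 and 74, which had 86 to 2227 AGO5 counts, had no CLV3 or mCherry at 5 counts. In the 8 carriers of at least 50000 counts, CLV3 and mCherry were in 3 each, where their shares of all such nuclei give 1.501. CYCB1;1 was in 2 against 1.21, CYCB1;2 in 5 against 2.901, CDKB2;1 in 3 against 1.83 and KNOLLE in 4 against 2.06. Of meristem genes, STM was in 2 against 2.45, KNAT1 in 0 against 3.25, KNAT2 in 1 against 1.23 and CLV1 in 4 against 2.296. These differences rest on few nuclei and were not tested.

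Of the 7 other ARGONAUTE genes listed, AGO4 and AGO9 were present in AGO5 nuclei at 5 or more counts, and AGO2, AGO3, AGO6, AGO7 and AGO8 were not. AGO9, of the clade that acts in DNA methylation and silencing, had 5 or more counts in p1 nuclei 13, 21 and 84 and in p2 nuclei 3 and 74. AGO4, the main effector of RNA-directed DNA methylation, had them in p1 nuclei 13, 62, 88 and 84 and in p2 nuclei 17 and 74. In the 8 carriers of at least 50000 counts, AGO4 was in 5 and AGO9 in 4, where their shares of all such nuclei give 3.61 and 2.07. For the genes not present, these shares give only 0.0741 (AGO3) to 0.920 (AGO7) nuclei, so that their absence says little. The p1 nuclei 6 and 14 held none of the 7. The p1 nucleus 13 held 2227 counts of AGO5, 1810 of AGO10, 4180 of AGO9 and 1743 of AGO4 but none of AGO1. The p1 nucleus 62 held AGO1 at 678 CPM, AGO5 at 730 and AGO10 at 81.3, with AGO4 at 6.33 CPM and no AGO9 at 5 counts. The AGO5 nuclei thus differed in which other ARGONAUTE transcripts they held.

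**Figure D4:**
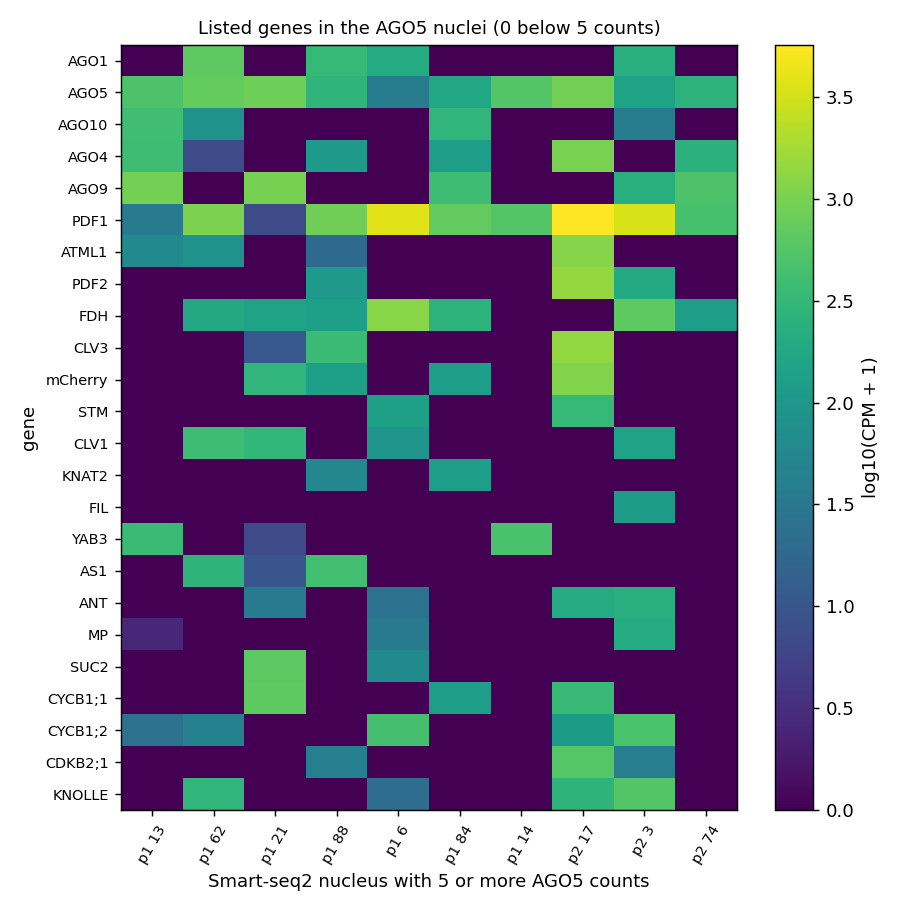
Level of the ARGONAUTE genes and of chosen marker genes, as log10(CPM + 1), in the 10 Smart-seq2 nuclei with 5 or more AGO5 counts; genes below 5 counts in a nucleus are set to 0. PDF1 is present in every column, CLV3 with mCherry in p1 nuclei 21 and 88 and p2 nucleus 17, and AGO9 in 5 of the 10.

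AGO1-high nuclei were then set against the other nuclei of at least 50000 counts, gene by gene, by the share of nuclei with 5 or more counts. A gene was called when the share differed by at least 20 percentage points in the same direction in p1 and p2. Of 7723 genes, 3.06% (236) were called higher and 0% (0) lower. Beside this, more genes had 5 or more counts in AGO1-high nuclei, as given above, and at an equal 50000 counts the medians of genes detected were 3798.5 against 2435 in p1 and 2326 against 2065.5 in p2. Median total counts were 2031332 against 2016797 in p1 and 518337 against 377761.5 in p2. The part of detection in these calls was not tested.

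The genes with the largest called differences were of varied function. SPDS1, a spermidine synthase, was in 59.1% of AGO1-high and 14.3% of other nuclei in p1, and in 52.9% and 21.9% in p2. RLT2, a partner of ISWI chromatin remodellers, was in 68.2% and 25.7% in p1 and in 64.7% and 32.8% in p2. UBC6, a ubiquitin-conjugating enzyme, PKP-BETA1, a plastid pyruvate kinase subunit, and AT2G25760 made up the remaining genes of the top 5, with differences of 27.01 to 44.8 points in p1 and 28.3 to 45.96 in p2. By the level itself, the genes most like AGO1 across nuclei were the protein kinase gene WNK6, the amino acid permease gene AAP5, the transcription elongation factor gene GTA2, PKP-BETA1 and ARK3. Their Pearson's r with AGO1 was 0.36 to 0.45 in each group. The 95th percentile over all genes was 0.358 in p1 and 0.275 in p2, and 0.21 for the lower r of the 2 groups. The 5 genes were chosen by their lower r, so their place above its 95th percentile was set in advance.

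Genes that act on AGO1 or with it were not called as a group. In the list of ARGONAUTE partners and turnover, 1 of 15 tested genes was called higher and none lower, beside 3.06% called higher over all genes. It was SDN3, of the exonucleases that degrade microRNAs, at 12 of 22 AGO1-high against 10 of 35 other nuclei in p1 and 7 of 17 against 8 of 64 in p2. FBW2, the F-box protein that promotes turnover of AGO1, stood at 17 of 22 against 15 of 35 in p1 and 10 of 17 against 27 of 64 in p2, past 20 points in p1 alone. SQN, the cyclophilin needed for full AGO1 activity, was in 1 of 22 against 2 of 35 and in 3 of 17 against 4 of 64. The list's median difference, over its 19 genes whether tested or not, was 10.8 points in p1 and 8.46 in p2. Over all genes tested, it was 11.2 and 6.71. AMP1, which acts on microRNA-mediated repression at the endoplasmic reticulum, had the smallest mean difference, at 0.581 points.

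The microRNA biogenesis genes gave no call among 8 tested, a list too short to read against the 3.06% called higher over all genes. ABH1, the large cap-binding subunit, had the largest mean difference, at 9 of 22 against 4 of 35 in p1 and 4 of 17 against 8 of 64 in p2. CPL1, a phosphatase of the processing factor HYL1, had the lowest, at 5 of 22 against 16 of 35 and 3 of 17 against 20 of 64. DCL1, the enzyme that cuts microRNA precursors, was in 6 of 22 against 10 of 35 and in 5 of 17 against 17 of 64. The list's median, over its 11 genes whether tested or not, was 11.3 points in p1 and 2.85 in p2. Over all genes tested, it was 11.2 and 6.71.

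The HD-ZIP III genes ranged widely in the number of nuclei that held them. PHB had 5 or more counts in 36 p1 and 35 p2 Smart-seq2 nuclei of 93, REV in 29 and 30, CNA in 25 and 22, PHV in 17 and 27, and ATHB8, a gene of the vascular lineage, in 10 and 4. Set by AGO1, PHB was in 14 of 22 AGO1-high against 18 of 35 other p1 nuclei and in 12 of 17 against 23 of 64 p2 nuclei. Set by AGO10, it was in 5 of 8 against 27 of 49 and in 11 of 20 against 24 of 61. ATHB8 had the largest mean difference of the list with AGO10, at 3 of 8 against 7 of 49 and 3 of 20 against 1 of 61, and was too rare to be tested. None of the 4 tested genes of the HD-ZIP III and LITTLE ZIPPER list was called with AGO1 or with AGO10. They were too few to read this against the 3.06% (AGO1) and 0.531% (AGO10) called higher over all genes.

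The precursors of the microRNAs named above were almost absent from the counts. MIR168A had 21 counts over the 93 p1 nuclei, with 5 or more in 2 nuclei that were both AGO1-high, and 1 count over the p2 nuclei. MIR166A had 76 counts in p1 and 63 in p2, in 5 and 2 nuclei at 5 or more, and MIR166D had 90 counts in p2, in 3 nuclei. MIR165A, MIR165B, MIR166C, MIR166F and MIR166G had none in any Smart-seq2 nucleus or bulk well. With counts this low, no direction with AGO1 or AGO10 was taken from them.

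Markers of cell identity gave no call with AGO1. The tested markers were too few to read this against the 3.06% called higher over all genes. The stem cell and organ boundary genes, CLV3 included, were too rare to be tested. CLV3 was in 7 of 22 against 8 of 35 in p1 and in 0 of 17 (0%, 0 to 19.5) against 5 of 64 in p2. AS1, which acts in organ primordia, had the largest mean difference at 22.3 points, but stood at 19 of 22 against 14 of 35 in p1 and 5 of 17 against 20 of 64 in p2, so that p1 and p2 differed in sign. KNOLLE, the syntaxin of dividing cells, was in 9 of 22 against 9 of 35 and in 5 of 17 against 8 of 64. The Rubisco gene RBCS1A was in every nucleus compared.

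**Figure D5:**
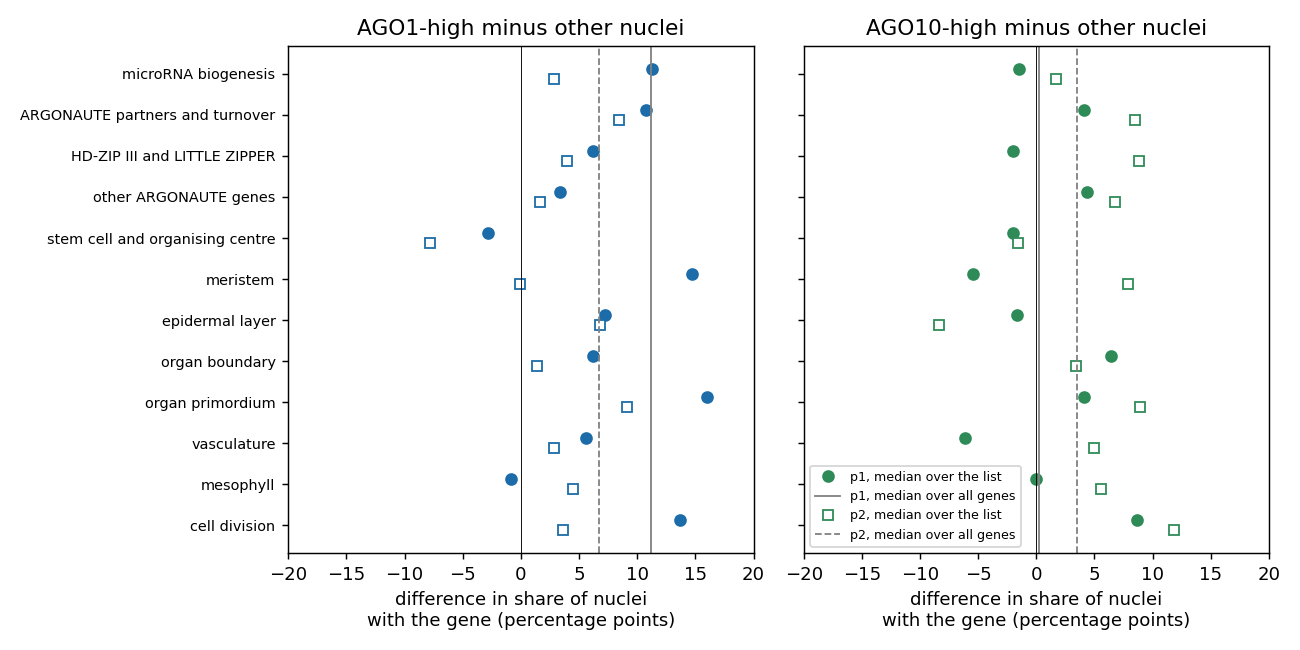
Median over each gene list of the difference in the share of nuclei with 5 or more counts, in percentage points, for AGO1-high (left) and AGO10-high (right) minus other nuclei; filled circles are p1, open squares p2, and the grey lines are the medians over all 7723 genes (solid p1, dashed p2). For AGO1, list medians lie between -7.81 and 15.97 points, around the lines of all genes at 11.2 and 6.71; for AGO10, the lines are at 0.255 and 3.52, and cell division has the highest medians at 8.67 and 11.8; the partners, other ARGONAUTE and organ primordium lists also lie above both lines, and the microRNA biogenesis, stem cell and epidermal lists lie below both.

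AGO10-high nuclei were set against the other nuclei in the same way. Of the 7723 genes, 0.531% (41) were called higher and 0.0518% (4) lower, over 8 AGO10-high and 49 other nuclei in p1 and 20 and 61 in p2. Genes with 5 or more counts numbered 3824.5 against 3642 at the median in p1 and 2496 against 2166 in p2. The median difference over all genes was 0.255 points in p1 and 3.52 in p2. With 8 nuclei in p1, 1 nucleus moves a share by 12.5 points, and the calls moved with the definition of a high nucleus. From 100 CPM, which left 6 AGO10-high nuclei in p1 and 10 in p2, 67 genes were called higher and 64 lower, so that the excess of higher calls was gone. Without nuclei above 4000000 counts, 61 were called higher and 11 lower, and at an equal 50000 counts, 36 and 1.

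ATSMC2, a condensin subunit that compacts chromosomes, was among the genes with the largest called differences. It was in 87.5% of AGO10-high and 51.02% of other nuclei in p1, and in 75% and 37.7% in p2. ENODL15, an early nodulin-like protein, was in 87.5% and 34.7% in p1 and in 40% and 11.5% in p2. AT4G27120, AT3G27700 and AT4G28440 completed the top 5, with differences of 36.2 to 58.7 points in p1 and 23.6 to 30.6 in p2. The 4 genes called lower were CTC1, a subunit of the telomere-capping complex, AT5G58720, AT5G08500 and AT3G33530, and CTC1 was in 0% against 34.7% in p1 and 5% against 26.2% in p2. At an equal 50000 counts and from 1 count, AT5G08500 alone stayed past 20 points in both groups: CTC1 reached -19.6 points in p2, and AT5G58720 and AT3G33530 reached -14.03 and -16.1 in p1.

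The genes most like AGO10 in level across nuclei were AT3G14390, Phox2, CLPP4, MET1 and RBR1. MET1 maintains DNA methylation at CG sites during replication, and its r with AGO10 was 0.30 in p1 and 0.30 in p2. RBR1, the retinoblastoma-related repressor of the cell cycle, had r of 0.29 and 0.38. The 95th percentile over all genes was 0.255 in p1 and 0.223 in p2, and 0.12 for the lower r of the 2 groups. These genes too were chosen by their lower r, so their place above its 95th percentile was set in advance. The likeness of these genes in level says nothing of a shared role.

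Among listed genes, AGO4 was the only one called with AGO10, beside 0.531% called higher over all 7723 genes. Of the other ARGONAUTE genes, 2 were tested, too few to read 1 call against that share. AGO4 was in 6 of 8 AGO10-high against 20 of 49 other nuclei in p1 (75%, 34.9 to 96.8, against 40.8%, 26.997 to 55.8) and in 12 of 20 against 24 of 61 in p2 (60%, 36.1 to 80.9, against 39.3%, 27.1 to 52.7). The intervals overlapped in both groups, and at an equal 50000 counts and from 1 count the differences were 23.7 and 15.7 points. AGO9 stood at 4 of 8 against 12 of 49 and 4 of 20 against 14 of 61. With AGO1, in contrast, AGO4 was in 12 of 22 against 14 of 35 in p1 and in 6 of 17 against 30 of 64 in p2, so that p1 and p2 differed in sign.

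Cell division genes had the highest list median with AGO10 in both groups, at 8.67 points in p1 and 11.8 in p2. KNOLLE was in 5 of 8 against 13 of 49 in p1 and in 6 of 20 against 7 of 61 in p2, which missed the call by its p2 difference of 18.5 points. The mitotic cyclin gene CYCB1;2 was in 5 of 8 against 23 of 49 and in 6 of 20 against 6 of 61. CDKB1;1 had the lowest mean difference of the list, at -4.66 points. None of the 4 tested genes of the list was called, too few to read against the 0.531% called higher over all genes.

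None of the 4 epidermal genes was called with AGO10, and the stem cell genes were too rare to be tested. The epidermal genes were too few to read this against the 0.531% called higher and 0.0518% lower over all genes. CLV3 was in 1 of 8 against 14 of 49 in p1 and in 1 of 20 against 4 of 61 in p2, and the mCherry reporter in 2 of 8 against 13 of 49 and in 1 of 20 against 4 of 61. STM was in 2 of 8 against 15 of 49 and in 4 of 20 against 22 of 61. FDH was in 5 of 8 against 37 of 49 and in 6 of 20 against 28 of 61, and PDF2 was lower in both groups too, at 3 of 8 against 23 of 49 and 6 of 20 against 22 of 61. ATML1 was higher in both, at 5 of 8 against 23 of 49 and 8 of 20 against 22 of 61, but lower in both at an equal 50000 counts, by -5.36 and -4.34 points. The epidermal list had medians of -1.66 and -8.40 points. ANT, an AP2 gene of organ primordia, was in 2 of 8 against 29 of 49 and in 10 of 20 against 29 of 61, below the other nuclei in p1 and close to them in p2. MP, an auxin response factor listed with the vasculature, was in 4 of 8 against 13 of 49 and in 7 of 20 against 15 of 61.

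The bulk wells and the summed nuclei gave different pictures of the 3 genes. Relative to the sum of the 93 nuclei, AGO1 was higher in the bulk wells, by a log2 ratio of 0.82 in p1 (0.66 to 0.96) and 1.22 in p2 (1.02 to 1.41). Among 19974 genes, 29.5% were higher in the bulk well in both groups, 8.38% were past 2-fold higher in both and 5.33% past 2-fold lower. For AGO10 both intervals included 0, at 0.14 (-0.14 to 0.40) and -0.18 (-0.58 to 0.19), and AGO5 went apart, at -0.96 (-1.44 to -0.52) in p1 and 0.97 (0.43 to 1.46) in p2. Opposite directions were seen in 49.5% of all genes. The median log2 ratio over all genes was 0.17 in p1 and 0.11 in p2, and the directions of AGO1 and AGO5 did not change with any of 4 other scalings, whereas AGO10 in p1 turned to -0.01 under TMM and to -0.11 with equal weight for every nucleus. A single nucleus moved the AGO5 ratios far: without its top nucleus, the ratio was -0.26 in p1 and 2.56 in p2.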

How the data were processed

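For 210 wells the authors deposited estimated counts in 1 table. Of its values above 0, 11.2% were not whole, so every value was rounded. The submitters' processing notes name DESeq2 and TAIR10 without a role; the aligner, counting program and annotation are not given in the sources used here. Of 29696 gene identifiers, 28929 (97.4%) matched the TAIR10.1 annotation. CPM used the total on nuclear and organelle genes. Genes were compared between nuclei when 5 or more counts were reached in at least 10% of p1 and of p2 nuclei of 50000 or more counts. The genes named were the members, the largest and smallest mean difference of each list with the regulators of the members, and the 5 leading genes of each ranking. Members and the 14 lists (96 genes, reporter included) were chosen with earlier results of these data known. Ratios used genes with 50 or more counts, with exact binomial intervals. Scripts were tested on simulated data. Alternatives used edgeR 4.0.16 (TMM) and DESeq2 1.42.0 size factors; Python 3.11.15, numpy 2.4.6, pandas 2.3.3 and scipy 1.17.1 did the rest.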

Additional observations from a re-analysis of the deposited data

Results flagged for a closer look

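AGO5 went in opposite directions between bulk well and summed nuclei: its log2 ratio was -0.96 in p1 and 0.97 in p2, with both intervals away from 0. Each group has 1 bulk well, and the difference between p1 and p2 was not tested. In all, 49.5% of 19974 genes had opposite directions in p1 and p2. The top p1 nucleus held 40.5% of the AGO5 counts of the p1 sum and the top p2 nucleus 67.1% of those of the p2 sum.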

How the results depend on the processing

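No paired analysis was possible because the results come from no test and a replicate number only names a nucleus. From 1 count, the p1 shares became 65.6% (AGO1), 20.4% (AGO5) and 34.4% (AGO10). AGO1 in p1 was in 49.1% of nuclei of at least 50000 counts and 42.1% of those thinned to 50000, and AGO10 in p2 in 21.5% at 50 CPM. Without the top nucleus, the log2 bulk ratio was 1.13 and 1.55 (AGO1, p1 and p2), -0.26 and 2.56 (AGO5) and 0.60 (AGO10, p1); with equal weight per nucleus it was 1.81 (AGO1, p2). AGO1 with AGO10 fell to 13 nuclei at 50 CPM; from 1 count, AGO1 with AGO5 came to 11 and AGO5 with AGO10 to 9. Genes called higher with AGO1 numbered 498 when high began at 20 CPM, and 1 was lower after thinning. With AGO10, calls were 64 higher and 2 lower from 20 CPM, and 67 higher and 64 lower from 100 CPM, where p1 had 6 high nuclei; 1 was lower after thinning and 11 without nuclei above 4000000 counts, which left 4 high p1 nuclei. That limit and the minimum of 20 counts were chosen after seeing the data. The other 93 values stayed within the main interval, or within 1.5 times for counts. Of the list medians, 3 changed sign at an equal 50000 counts and 53 did not. The 3 were mesophyll with AGO1 in p1, and microRNA biogenesis in p1 and the stem cell list in p2 with AGO10. The causes were not tested.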
